A study of Mus musculus with 5 samples.

Results

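TAZ, YAP and the DNA-binding proteins they work through were followed at the mRNA level in 4T1 cells with and without an intact TAZ gene. The set held 8 genes chosen by symbol: Wwtr1, which encodes TAZ, its paralogue Yap1, the 4 TEAD genes Tead1 to Tead4, and the vestigial-like genes Vgll3 and Vgll4. Of these, 7 are described here among the 13143 genes of the count table, all 7 passed the filter on low counts, and the level of Vgll3 was not analysed here. The cells were 2 TAZ-KO clones and 3 WT clones of 4T1, a mouse mammary carcinoma line with a tetraploid genome, grown untreated in culture with 1 RNA-seq library each. Every clone expressed Cas9 after blasticidin selection. TAZ-KO clones additionally carried a guide RNA against Wwtr1 and had been selected with puromycin, whereas WT clones had received neither. Both TAZ-KO clones came from the same Cas9 founder and the same guide, and each library is a single-cell clone, so that differences between clones, guide effects at other sites and loss of TAZ cannot be told apart. The column names of both TAZ-KO libraries contain YAP, although titles and genotypes say TAZ KO, and the groups follow the titles and genotypes.

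TAZ and YAP are transcriptional coactivators without a DNA-binding domain of their own. The Hippo kinases MST and LATS phosphorylate them, which holds them in the cytoplasm on 14-3-3 proteins or marks them for degradation. In the nucleus they join TEAD proteins, which bind DNA and occupy enhancers and promoters of genes for matrix, cytoskeleton and growth, while vestigial-like proteins bind the same TEAD surface and VGLL4 competes with TAZ and YAP for it. In breast cancer cells TAZ is known for its role in migration, stem-like properties and tumour growth.

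TEAD proteins recognise the letters GGAATG, read as CATTCC on the other strand, so the promoters of the factor genes were searched for these 6 bases. RefSeq windows (GRCm38.p6, 250 bases before to 50 after each annotated start) were at hand for 6 of the 8 genes: Wwtr1, Yap1, Tead2, Tead3, Vgll3 and Vgll4. Tead1 and Tead4 are named only. The motif, on either strand, lay in a window of 5 of these 6 genes, all but Tead2, and in 7 of their 9 windows. By comparison it lay in 16.6% of 27025 mouse genes with a window, in 14.3% of the 9856 of them in the count table, and in 12.3% of 7620 genes with a window of at least 61.3% GC, the lowest GC content among the windows of the set. In the pathway lists described below, the motif lay in 7 of 15 YAP/TAZ target genes with a window (46.7%). It also lay in 4 of 15 Hippo kinase and scaffold genes (26.7%) and in 2 of 11 retention and turnover genes (18.2%). Genes with several starts have more chances to hold it, and both Wwtr1 windows hold the same site. A match describes the letters of the window and does not show that a TEAD protein binds there. The whole first Wwtr1 window (chr3:57575861-57576160, minus strand) is shown because it belongs to the targeted gene, with the motif in capitals:
Wwtr1: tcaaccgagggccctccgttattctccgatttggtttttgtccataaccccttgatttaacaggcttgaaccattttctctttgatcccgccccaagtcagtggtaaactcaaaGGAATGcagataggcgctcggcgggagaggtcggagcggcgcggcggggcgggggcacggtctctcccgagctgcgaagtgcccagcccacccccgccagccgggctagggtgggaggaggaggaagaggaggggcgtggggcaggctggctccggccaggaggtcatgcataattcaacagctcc
For the other genes, the motif is shown with the 12 bases on each side, 5′ to 3′ along the gene (Vgll3 on the plus strand, the others on the minus strand), and Tead3 also held it at 3 places in its second window:
Yap1 chr9:8004720-8004749: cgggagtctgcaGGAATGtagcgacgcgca
Tead3 chr17:28350970-28350999: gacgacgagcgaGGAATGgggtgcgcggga
Vgll3 chr16:65815114-65815143: cccgcctccccaCATTCCggctaccctgcc
Vgll4 chr6:114969268-114969297: cgagtggggtggGGAATGctgagaaatgcc

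Libraries held 14695384 to 16452147 counts. Levels are given in CPM, the count of a gene divided by the TMM-scaled size of its library, and 3 counts corresponded to 0.184 to 0.203 CPM, and each of the 7 factor genes lay far above this level in every library. Differences are log2 fold changes of TAZ-KO over WT with their standard error (SE) from edgeR's quasi-likelihood test, with p-values adjusted over all 11975 genes tested. The median log2 fold change of all genes was -0.03. All 8 epithelial markers were detected, with a summed level of 3529 to 3634 CPM in TAZ-KO clones and 2424 to 4570 CPM in WT clones. This sum was mostly Krt8, Krt18 and Krt7 and hides single genes, as 4 of the 8 had a negative log2 fold change. Cldn7, at 0.267 CPM in TAZ-KO 2, lay near the level of 3 counts. Fibroblast markers (5 of 8 measured, mostly Pdgfra) summed to 90.5 to 92.5 CPM in TAZ-KO and 30.2 to 123 CPM in WT clones. Immune markers (6 of 8, mostly Cd68 and Cd14) summed to 17.9 to 23.8 CPM in TAZ-KO and 24.5 to 42.6 CPM in WT clones. Endothelial markers (2 of 6) summed to 0.463 to 0.667 and 0.308 to 1.49 CPM. Histone genes whose mRNAs normally lack poly(A) tails (50 genes) summed to 137 to 139 CPM in TAZ-KO clones, against 41.0 to 57.6 CPM in WT clones, and their part in the results below was not tested.

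Of the 7 factor genes, 0 passed the edgeR test at an adjusted p of 0.05, where 0.0501% of all genes did (6 of 11975). At an unadjusted p under 0.05 there were 3 of 7, with Wwtr1 and Tead1 lower (9.41% of all genes) and Tead4 higher in TAZ-KO (7.94%, or 17.4% of all genes in both directions). DESeq2 called 1 of the 7, Wwtr1, as lower, where it called 5.25% of all genes (3.11% lower and 2.15% higher). The fit with 1 surrogate variable, a covariate estimated from the data, also called Wwtr1 alone (4.41% of all genes), and limma-voom called 0 of the 7 (0.0334%). The covariate was -0.25 and -0.32 in TAZ-KO 1 and TAZ-KO 2 and -0.50 in WT 1, against 0.53 and 0.55 in WT 2 and WT 3. It thus set WT 2 and WT 3 apart from the other clones and partly overlapped the genotype groups. WT 1 stood apart from WT 2 and WT 3 for several of the factor genes. Without WT 1 edgeR called 3 of the 7, with Wwtr1 and Tead1 lower and Tead4 higher, where 38.7% of all genes were called (19.7% lower and 19.1% higher), so that 3 of 7 was close to the share of genes in general. In the same 4 libraries DESeq2 called Wwtr1 and Tead1 (34.5% of all genes) and limma-voom called all 3 (39%). In an exact permutation test, 5 libraries allow 10 splits and no p under 0.1.

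**Figure D1:**
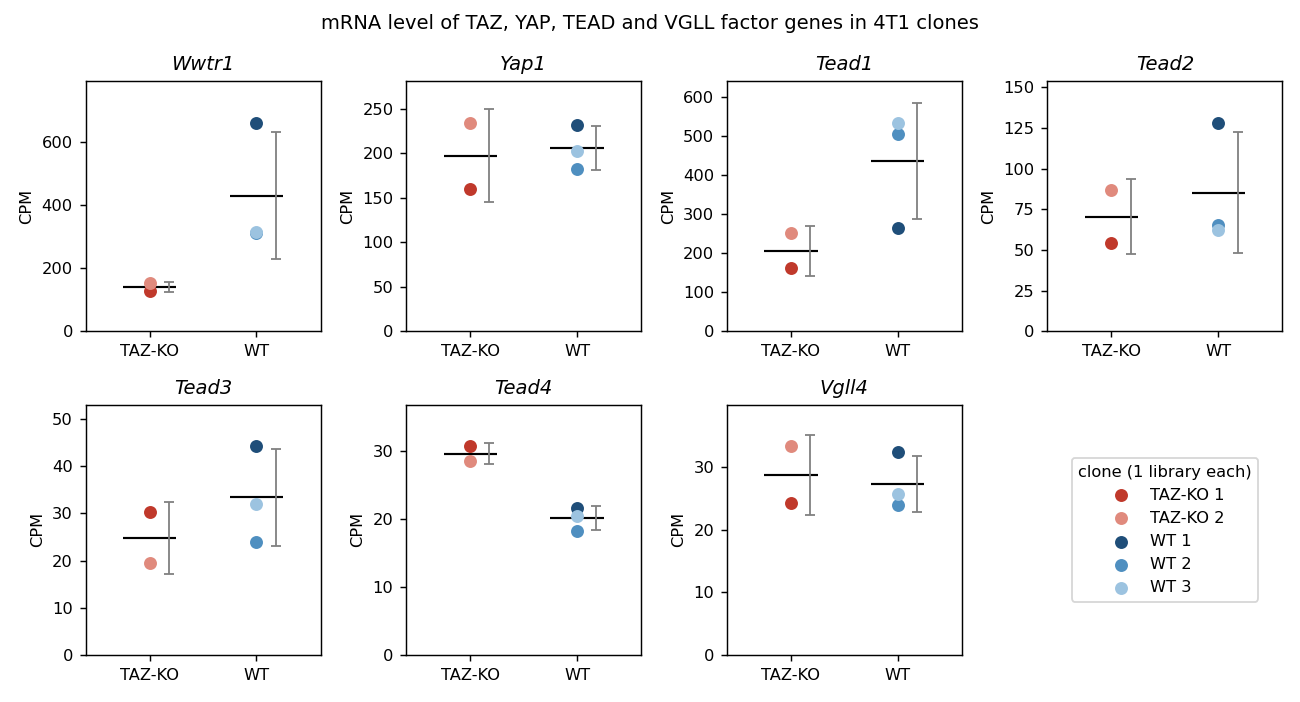
mRNA level in CPM (vertical axes, each starting at 0) of 7 factor genes in 2 TAZ-KO and 3 WT clones, with 1 point per clone, the group mean as a horizontal line and 1 SD as a bar beside it. Both TAZ-KO points lie below all WT points for Wwtr1 and Tead1 and above them for Tead4, and the groups overlap for the other 4 genes.

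Wwtr1, the gene targeted by the guide, was lower in either TAZ-KO clone than in any WT clone. Its level was 129 and 152 CPM in TAZ-KO 1 and TAZ-KO 2, against 659.7, 312 and 315 CPM in WT 1, WT 2 and WT 3. The TAZ-KO clones were close to each other, and so were WT 2 and WT 3, whereas WT 1 held 2.10 times the mean of those 2 clones. The mean level was 140.4 ± 16.6 CPM in TAZ-KO and 429 ± 199.8 CPM in WT (SD, n = 2 and 3), a log2 fold change of -1.61 (SE 0.40, adjusted p = 0.190), and Wwtr1 fell by DESeq2 (adjusted p = 0.00594). Without WT 1 the log2 fold change was -1.16 (SE 0.16, adjusted p = 0.00193). The TAZ-KO libraries thus still held 1947 and 2280 Wwtr1 counts. A count per gene does not show the edited bases, so the level checks the labels only through the amount of mRNA, and in bulk RNA fewer expressing cells and less RNA per cell cannot be told apart. Separately, the paper reports that sequencing found every Wwtr1 allele edited in the TAZ-KO clones. It also reports less Wwtr1 mRNA by RT-qPCR and complete loss of TAZ protein. Wwtr1 lies on chromosome 3 (57455649 to 57575910, minus strand, GRCm38). Along the 23 genes within 5 Mb of it, the median log2 difference from the WT mean was -0.11 in TAZ-KO 1 and 0.05 in TAZ-KO 2, while that of Wwtr1 itself was -1.64 and -1.40. In WT 1, set against WT 2 and WT 3, these neighbours had a median of -0.41, beside 1.07 for Wwtr1. In mouse tables the symbol Taz stands for another gene, tafazzin, a mitochondrial enzyme, with 21.0 and 23.7 CPM in the TAZ-KO and 27.5, 29.5 and 18.4 CPM in the WT libraries.

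Yap1, which encodes the paralogue that shares TEAD partners with TAZ, did not pass the test, and its groups overlapped. It was at 160.3 and 234 CPM in TAZ-KO 1 and TAZ-KO 2, against 232, 182 and 203 CPM in WT 1, WT 2 and WT 3. The TAZ-KO clones were the lowest and the highest of the 5. The means were 197 ± 52.4 CPM in TAZ-KO and 206 ± 24.9 CPM in WT (SD, n = 2 and 3; log2 fold change -0.06, SE 0.25, adjusted p = 0.913). The sign of this small difference depended on single clones, with 0.21 without TAZ-KO 1 and 0.04 without WT 1. The gene (chromosome 9, 7931999 to 8004596, minus strand) shares 116 exonic bases with Gm20416 on the opposite strand, and whether the counts kept strand is unknown. Its neighbours within 5 Mb (16 genes) had a median log2 difference of -0.26 in TAZ-KO 1, next to -0.35 for Yap1, and its part in the low value of that clone was not tested.

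Among the DNA-binding partners, Tead1 was the TEAD gene with the most counts in every library, and its TAZ-KO levels lay under all 3 WT levels. Its level was 161 and 251 CPM in TAZ-KO 1 and TAZ-KO 2, against 265, 507 and 535 CPM in WT 1, WT 2 and WT 3. TAZ-KO 2 and WT 1 lay next to each other, and WT 2 and WT 3 held about the same, higher level. Over all clones the mean was 206 ± 63.5 CPM in TAZ-KO and 435.5 ± 148.7 CPM in WT (SD, n = 2 and 3), with a log2 fold change of -1.08 (SE 0.39, adjusted p = 0.260 by edgeR and 0.114 by DESeq2). Without WT 1 Tead1 fell (log2 fold change -1.34, SE 0.23, adjusted p = 0.00400). With 1 surrogate variable it was -0.57 (adjusted p = 0.229). Tead1 lies on chromosome 7 (112679318 to 112906807, plus strand). For this chromosome, 770 other tested genes with a mean of at least 1 log2 CPM were used. Their median log2 difference from the WT mean was -0.26 in TAZ-KO 1 and 0.07 in TAZ-KO 2, against -1.37 and -0.73 for Tead1. The part of the chromosome in the result was not tested.

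Tead2, the TEAD gene with the next most counts, did not pass the test. It stood at 54.3 and 86.6 CPM in TAZ-KO 1 and TAZ-KO 2, and at 128, 65.5 and 62.1 CPM in WT 1, WT 2 and WT 3. WT 1 was the highest, at 2.01 times the mean of WT 2 and WT 3, and the other 4 clones overlapped. The log2 fold change was -0.28 (SE 0.39, adjusted p = 0.726) and turned to 0.15 without WT 1. Tead2 (chromosome 7, 45215753 to 45233644, plus strand) shares 13 exonic bases with Cd37 on the opposite strand.

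Tead3 did not pass either. Its level was 30.2 and 19.5 CPM in TAZ-KO 1 and TAZ-KO 2, against 44.2, 23.9 and 32.1 CPM in WT 1, WT 2 and WT 3. WT 1 was again the highest and TAZ-KO 2 the lowest, and the groups overlapped (log2 fold change -0.43, SE 0.34, adjusted p = 0.526). Leaving out single clones moved this value to -0.14 without TAZ-KO 2, -0.75 without TAZ-KO 1 and -0.17 without WT 1. Tead3 lies on chromosome 17 (28331671 to 28350817, minus strand). There, 538 other tested genes with a mean of at least 1 log2 CPM had a median log2 difference of -0.26 in TAZ-KO 2. Tead3 itself was at -0.73 in that clone.

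Tead4, a TEAD gene best known from the trophectoderm of the early mouse embryo, was the only 1 of the 7 whose TAZ-KO levels both exceeded all WT levels, where 18.7% of all genes had that order. The opposite order, with no overlap, held for 2 of 7 (Wwtr1 and Tead1), against 18.6% of all genes. Tead4 was at 30.6 and 28.4 CPM in TAZ-KO 1 and TAZ-KO 2, and at 21.6, 18.2 and 20.4 CPM in WT 1, WT 2 and WT 3. Here WT 1 lay with the other WT clones, and the clones of each group were closer together than for any other factor gene by coefficient of variation (5.23% in TAZ-KO and 8.61% in WT). The mean was 29.5 ± 1.54 CPM in TAZ-KO and 20.1 ± 1.73 CPM in WT (SD, n = 2 and 3), with a log2 fold change of 0.55 (SE 0.22, adjusted p = 0.279). Without WT 1 it rose by edgeR (0.61, SE 0.19, adjusted p = 0.0338) and limma-voom (adjusted p = 0.0320), and missed the threshold by DESeq2 (adjusted p = 0.0531). Its chromosome 6 (128224288 to 128300823, minus strand) had medians of 0.02 and 0.04 in TAZ-KO 1 and TAZ-KO 2, against 0.61 and 0.50 for Tead4.

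Vgll4, whose product competes with TAZ and YAP for TEAD proteins, did not pass the test. It was at 24.3 and 33.3 CPM in TAZ-KO 1 and TAZ-KO 2, against 32.3, 23.9 and 25.7 CPM in WT 1, WT 2 and WT 3. The groups overlapped fully, with TAZ-KO 1 near WT 2 and TAZ-KO 2 near WT 1 (log2 fold change 0.08, SE 0.26, adjusted p = 0.892). The gene lies on chromosome 6 (114860628 to 114969994, minus strand).

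**Figure D2:**
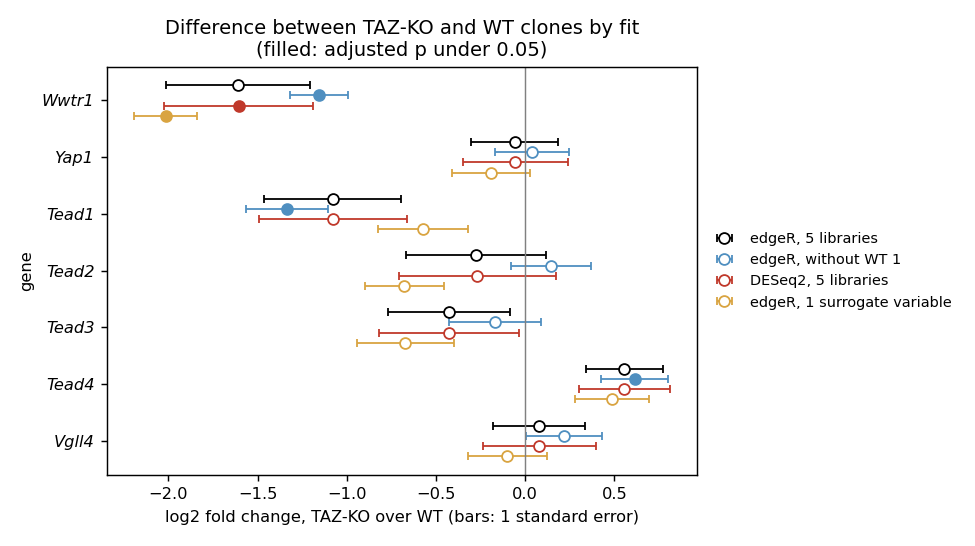
Log2 fold change of TAZ-KO over WT (horizontal axis, bars of 1 SE) of the 7 genes (vertical axis) in 4 fits: edgeR on 5 libraries, edgeR without WT 1, DESeq2, and edgeR with 1 surrogate variable. Filled points have an adjusted p under 0.05: Wwtr1 in 3 of the fits (-1.16, -1.61 and -2.02) and Tead1 (-1.34) and Tead4 (0.61) only without WT 1.

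The factor genes varied in different ways over the 5 clones. On the log2 CPM scale, centred on each gene's mean, Wwtr1 was at -1.03 and -0.79 in TAZ-KO clones and at 1.32, 0.24 and 0.26 in WT clones. Tead1 was at -0.95 and -0.31, against -0.23, 0.71 and 0.78, so that WT 1 was the highest clone for Wwtr1 and the lowest WT clone for Tead1. Tead2 and Tead3 shared the high value of WT 1 (0.76 and 0.61) but differed in the TAZ-KO clones, with TAZ-KO 1 the lower for Tead2 and TAZ-KO 2 the lower for Tead3. WT 1 was above every other library in 3 of the 7 (Wwtr1, Tead2 and Tead3), against 22% of all genes. From lowest to highest clone, the level spanned 5.13-fold for Wwtr1, 3.32-fold for Tead1, 2.36-fold for Tead2, 2.27-fold for Tead3, 1.68-fold for Tead4, 1.46-fold for Yap1 and 1.40-fold for Vgll4.

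**Figure D3:**
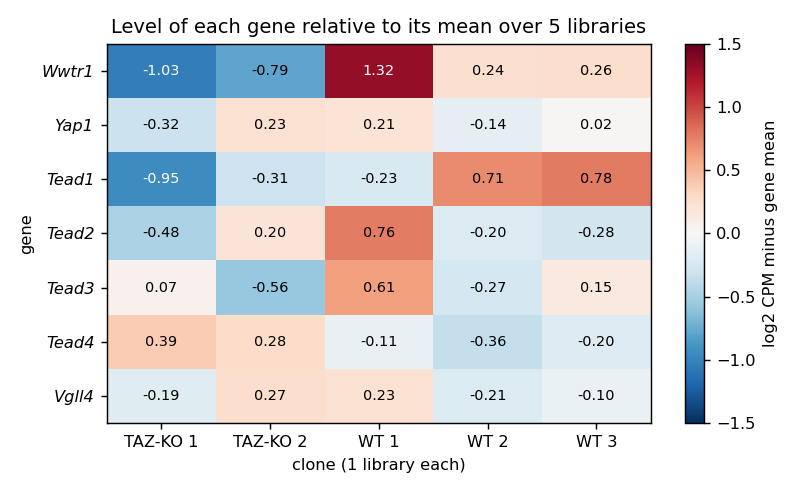
Log2 CPM of 7 factor genes (rows) in each clone (columns) minus the gene's mean over the 5 libraries, with the value printed in each cell. WT 1 is the highest clone for Wwtr1 (1.32), Tead2 (0.76) and Tead3 (0.61), while Tead1 has its low values in both TAZ-KO clones and WT 1.

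Likeness was measured as the root mean square difference between centred log2 CPM profiles over the 5 libraries, among 10345 genes with a mean of at least 1 log2 CPM. Among the factor genes, Yap1 and Vgll4 had the closest profiles (0.09), and Vgll4 was the 46th nearest of all genes to Yap1. The genes nearest to Wwtr1 were Pdzd4, Smox, a polyamine oxidase gene, and the immediate early gene Ier5, at 0.22 to 0.23, beside a spread of 0.85 of Wwtr1 itself. Smox, for example, had 81.8 and 82.8 CPM in the TAZ-KO libraries, against 295.5, 225 and 185 CPM in the WT libraries. Tead1 was nearest to Chmp2b, an ESCRT-III gene, to Tsc22d3, the glucocorticoid-induced leucine zipper gene, and to Qtrtd1 (0.05 to 0.08, beside a spread of 0.66). Chmp2b had 37.9 and 56.9 CPM in TAZ-KO and 61.2, 124 and 119 CPM in WT clones, again with WT 1 next to TAZ-KO 2. The nearest genes were Akap13, Ppme1 and Tle1 for Yap1, Nuggc, Eid1 and Nr1h2 for Tead2, Tpt1, Cnnm2 and Numbl for Tead3, Lman2, Uba6 and Usp40 for Tead4, and Hyal2, Tubgcp5 and Fancf for Vgll4. These names are a description over 5 libraries.

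Levels of different genes were compared per kb of annotated exon, which does not apply if the reads come from the 3′ end only, as the barcoded protocol in the methods would give and the mRNA protocol in the labels would not. On this scale the order in TAZ-KO was Wwtr1 (29.4 ± 3.46 CPM per kb), Yap1 (21.3 ± 5.66), Tead1 (15.2 ± 4.68), Tead2 (14.7 ± 4.77), Tead4 (8.20 ± 0.429), Vgll4 (5.33 ± 1.18) and Tead3 (3.70 ± 1.13) (SD, n = 2). In WT it was Wwtr1 (89.8 ± 41.8 CPM per kb), Tead1 (32.1 ± 11.0), Yap1 (22.2 ± 2.69), Tead2 (17.8 ± 7.77), Tead4 (5.58 ± 0.481), Vgll4 (5.06 ± 0.827) and Tead3 (4.98 ± 1.52) (SD, n = 3). Wwtr1 was thus first in 5 of 5 libraries per kb, the TAZ-KO libraries included. Yap1 lay above Tead1 in 2 of 2 TAZ-KO and 1 of 3 WT libraries, and Tead1 above Tead2 in 2 of 2 and 2 of 3. The order of these neighbours thus changed between libraries, and their levels were not tested against each other. Tead4 lay above Vgll4 in all 5, and Tead3 above Vgll4 in 1 of 2 and 2 of 3. Per kb, Wwtr1 ranked at the 84.5th and 86.5th percentile of genes in TAZ-KO clones and between the 94.7th and 98.1st in WT clones. On the scale of CPM without length the order differed, and Wwtr1 was not first in every library. There, Yap1 lay above Wwtr1 in 2 of 2 TAZ-KO libraries and in 0 of 3 WT libraries. Wwtr1 lay above Tead1 in 0 of 2 TAZ-KO and 1 of 3 WT libraries, and Yap1 above Tead1 in 0 of 5.

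Wwtr1 made up 44.5% (exact 95% binomial interval 43.1 to 46.0) and 39.4% (38.1 to 40.6) of the summed Wwtr1 and Yap1 counts in TAZ-KO 1 and TAZ-KO 2. In WT 1, WT 2 and WT 3 its share was 74.0% (73.3 to 74.8), 63.1% (62.1 to 64.2) and 60.8% (59.8 to 61.9). These intervals cover counting error only. The TAZ-KO shares lay below all WT shares, also per kb of exon (60.9% and 55.7%, against 84.7%, 76.8% and 75.1%). Since this share rests on Wwtr1, the difference is the same measurement as the one above.

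The TEAD genes were also summed in each library, as a description with no test of the sums or shares. The summed level of the 4 TEAD genes was 276 and 385 CPM in TAZ-KO, against 459, 615 and 649 CPM in WT clones, without overlap (log2 ratio of the means -0.80, and -0.53 per kb). Without Tead1 the sums overlapped, at 115 and 134.5 CPM in TAZ-KO, against 194, 108 and 115 CPM in WT. Tead1 contributed 58.3% and 65.1% of TEAD counts in TAZ-KO clones and 57.7%, 82.5% and 82.4% in WT clones, with WT 1 next to TAZ-KO 1. Tead2 contributed 19.6% and 22.5% in TAZ-KO and 28.0%, 10.7% and 9.56% in WT. Tead4 was the 1 TEAD gene whose share separated the groups, at 11.1% and 7.37% in TAZ-KO clones and 4.72%, 2.96% and 3.14% in WT clones. Per kb of exon the Tead1 share was smaller, at 32.8% and 39.0% in TAZ-KO and 33.1%, 62.6% and 62.7% in WT. On that scale Tead2 held the largest share in WT 1 (45.5%). Vgll4 mRNA amounted to 8.78% and 8.64% of the summed TEAD level in TAZ-KO, above the 7.05%, 3.88% and 3.96% in WT. Vgll4 itself overlapped between the groups, so this percentage is not a measurement separate from the TEAD sum, in which Tead1 was the largest part. The ratio of summed Wwtr1 and Yap1 to summed TEAD level was 1.05 and 1.00 in TAZ-KO clones and 1.94, 0.803 and 0.798 in WT clones, so that the TAZ-KO clones lay within the WT range.

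**Figure D4:**
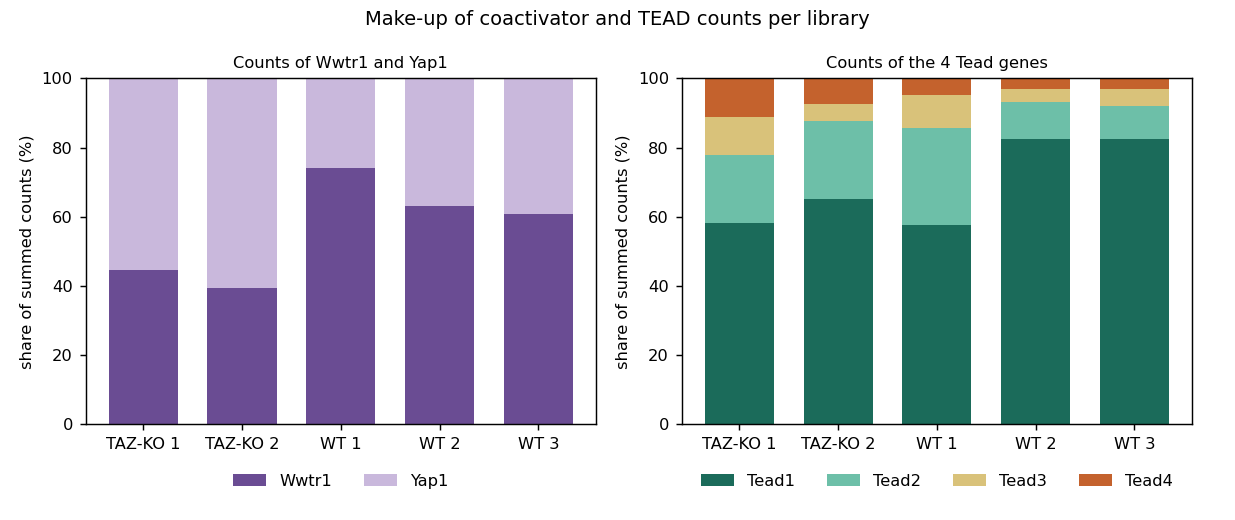
Share of summed counts (vertical axis, percent) in each library, with TAZ-KO clones left of WT clones, of Wwtr1 and Yap1 (left) and of Tead1 to Tead4 (right). Wwtr1 falls under 50% in both TAZ-KO libraries (44.5% and 39.4%) and not in WT, and Tead1 holds 82.5% and 82.4% of TEAD counts in WT 2 and WT 3 but 57.7% to 65.1% in the other 3 libraries.

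The genes that TAZ, YAP and TEAD are known to drive were taken from a list of 22 widely used YAP/TAZ target genes, of which 18 could be tested. Of these, 16 had a negative log2 fold change (88.9%, against 52.0% of all genes), with a median of -0.94 (-0.03 for all genes). With 1 surrogate variable 12 of 18 were negative (66.7%) with a median of -0.21, and the log2 fold change was -0.19 for Ctgf, 0.41 for Cyr61, 0.08 for Ankrd1 and 0.10 for Amotl2. That covariate itself set WT 2 and WT 3 apart from the other clones. edgeR called 0 of the targets (8 at an unadjusted p under 0.05, all lower, where 9.41% of all genes were), limma-voom called 0, and DESeq2 called 4 lower, against 3.11% of all genes: Asap1, Crim1, Gadd45a and Lats2. Asap1 was at 263 and 292 CPM in TAZ-KO and at 556, 658 and 718 CPM in WT. Crim1 overlapped between the groups, at 98.8 and 87.1 CPM in TAZ-KO and 95.8, 452 and 498 CPM in WT. For Gadd45a, WT 1 (19.8 CPM) lay near the TAZ-KO clones (15.7 and 14.2 CPM) and far below WT 2 and WT 3 (215 and 231 CPM). Ctgf, a matricellular gene and classical target, was at 53.1 and 15.1 CPM in TAZ-KO 1 and TAZ-KO 2, against 22.3, 239 and 370.3 CPM in WT 1, WT 2 and WT 3 (adjusted p = 0.306). The related gene Cyr61 stood at 202 and 191 CPM in TAZ-KO and at 111, 532 and 333 CPM in WT (adjusted p = 0.531). Ankrd1, a nuclear cofactor gene, was at 148 and 129 CPM in TAZ-KO and at 105, 304.5 and 297 CPM in WT (adjusted p = 0.415). In Ctgf, Cyr61 and Ankrd1 WT 1 had the lowest level or lay within the TAZ-KO range, and WT 2 and WT 3 were higher than every other clone. The same order, both TAZ-KO clones and WT 1 below WT 2 and WT 3, held for 14 of the 18 targets (77.8%, against 29.9% of all genes tested), and for Tead1 but not for Wwtr1. Without WT 1, 14 of the 18 targets fell and 0 rose, in a fit that called 19.7% of all genes lower and 19.1% higher. Some targets encode parts of the pathway itself, such as Lats2, Amotl2 and Ptpn14, which recur in the lists below.

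**Figure D5:**
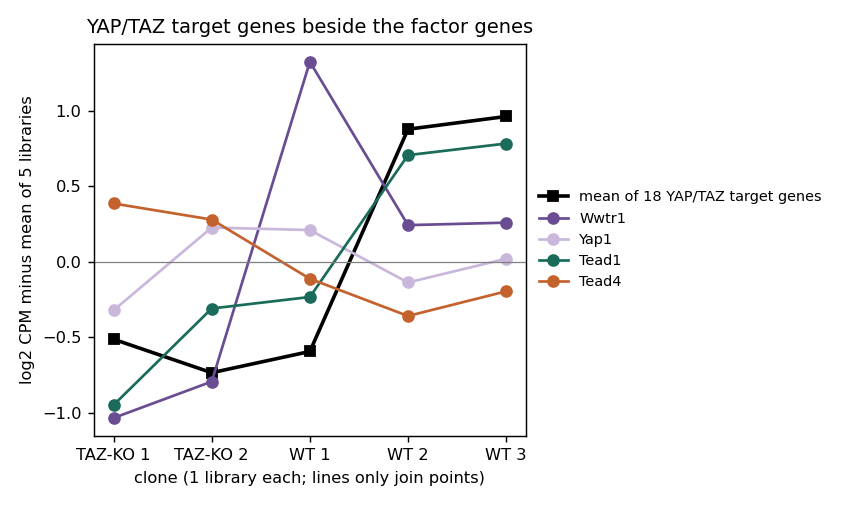
Mean centred log2 CPM of 18 YAP/TAZ target genes (black squares) beside Wwtr1, Yap1, Tead1 and Tead4 in each clone (horizontal axis, lines only joining points). The targets average -0.51 and -0.73 in TAZ-KO clones and -0.59, 0.88 and 0.96 in WT clones, with WT 1 low for the targets and Tead1 (-0.23) and high for Wwtr1 (1.32).

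Upstream of the coactivators, 17 genes of Hippo kinases and scaffolds were tested. None passed edgeR (3 at an unadjusted p under 0.05, of which 2 lower, against 17.4% of all genes), limma-voom called 0, DESeq2 called 1 (5.25% of all genes), and 11 had a negative log2 fold change, with a median of -0.26. The gene called by DESeq2 was Lats2, a kinase gene that is also a YAP/TAZ target. It was at 34.2 and 33.4 CPM in TAZ-KO, below the 49.7, 97.9 and 112 CPM in WT (log2 fold change -1.36, SE 0.37, adjusted p = 0.212 by edgeR). Its paralogue Lats1 overlapped between groups, at 162 and 129 CPM in TAZ-KO and 155, 194 and 232 CPM in WT (adjusted p = 0.412). The scaffold gene Nf2 was at 155 CPM in both TAZ-KO clones, just above the 115, 138 and 151 CPM in WT (log2 fold change 0.20, SE 0.20, adjusted p = 0.615). Without WT 1, 2 of the 17 rose, Sav1, which encodes the MST partner Salvador, and the kinase gene Taok2, and 7 fell, among them Lats1, Lats2, Stk4 and Wwc1. In that fit 19.1% of all genes rose and 19.7% fell.

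Genes for the retention and turnover of TAZ and YAP were a list of 15, with the angiomotin, 14-3-3, casein kinase and ubiquitin ligase genes. None passed edgeR (3 at an unadjusted p under 0.05, 0 of them lower, against 17.4% of all genes), limma-voom called 0, DESeq2 called 1 higher (2.15% of all genes), and the median log2 fold change was 0.08, with 6 negative. The gene that rose by DESeq2 was Sfn, which encodes 14-3-3 sigma, an epithelial member of its family. It was at 46.0 and 39.6 CPM in TAZ-KO, against 15.3, 9.45 and 9.37 CPM in WT (log2 fold change 1.91, SE 0.30, adjusted p = 0.101 by edgeR), without overlap of the groups. Amotl2, an angiomotin gene and YAP/TAZ target, was at 79.4 and 109 CPM in TAZ-KO and at 57.8, 421 and 443.5 CPM in WT (adjusted p = 0.328), with WT 1 the lowest clone. Btrc, which encodes the ligase subunit that recognises phosphorylated TAZ and YAP, was at 56.1 and 49.1 CPM in TAZ-KO and at 68.3, 45.8 and 47.0 CPM in WT (adjusted p = 0.960). Without WT 1, 5 of the 15 rose (Amot, Ywhah, Ywhaq, Ywhaz and Sfn, the last 4 of them 14-3-3 genes) and 4 fell (Amotl2, Ptpn14, Fbxw11 and Csnk1e), where 19.1% of all genes rose and 19.7% fell. The other 14-3-3 genes of the list, Ywhab, Ywhae and Ywhag, were not called in that fit (log2 fold changes 0.14, 0.13 and 0.15). Amot in the left-out WT 1 was at 31.1 CPM, within the 28.4 and 31.3 CPM of the TAZ-KO clones.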

How the data were processed

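RNA from 2 TAZ-KO and 3 WT clones was sequenced with 1 library each. The methods name UTAP as the pipeline, with cutadapt for trimming and STAR for mapping to GRCm38 (mm10 in the submitters' processing notes). They name DESeq2 for testing and, for the in vitro RNA-seq, a batch correction by surrogate variables (sva). The batches themselves are not described there. The authors deposited raw counts per gene, which were used here. They also deposited counts divided by size factors (a normalised signal), regularised log2 values, and a comparison of their own (log2 fold changes, p-values), and none of these was used. Each gene of the table exceeds 5 counts somewhere. For strand, the sources used here give no setting.

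Levels are CPM with TMM scaling. Groups were tested with edgeR 4.0.16 under R 4.3.3 (glmQLFit and glmQLFTest, quasi-likelihood) after its filter on low counts, TAZ-KO over WT, with Benjamini-Hochberg adjustment over 11975 genes. Replicates are single clones with 1 library each. The p-values set the group difference against the spread between them, in which clone and library cannot be told apart. Alternatives were DESeq2 1.42.0, limma-voom (limma 3.58.1), 1 surrogate variable (sva 3.50.0), other scalings and filters, the replicate number as a block, and leaving out each library. DESeq2 and limma-voom without WT 1 were added after seeing the data. Profiles used log2 CPM with a prior count of 2. The scripts were tested on simulated data with 200 changed genes. Exon lengths and positions came from GENCODE M21 (GRCm38) and promoters from RefSeq. Chromosome and neighbourhood medians used tested genes whose symbol is unique in that annotation and whose mean was at least 1 log2 CPM. Named genes were the factor genes, 8 pathway genes chosen by name, and the 3 genes nearest to each factor gene, leaving out predicted genes, Riken clones and pseudogenes. Other pathway genes are named because a test called them, chosen after their values were seen. The genes and lists were chosen with earlier results of these data known.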

Additional observations from a re-analysis of the deposited data

How the results depend on the processing

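edgeR called 10 genes without a filter on low counts (6 with it), DESeq2 690 and the fit with 1 surrogate variable 528. Leaving out 1 clone gave 0 to 4598 calls, with 4598 without WT 1 (4445 by DESeq2 and 4630 by limma-voom, both added after seeing the data) and 0 without any other clone, where 998 (WT 2), 1063 (WT 3), 852 (TAZ-KO 1) and 861 (TAZ-KO 2) genes had an unadjusted p under 0.05 and the other tools were not run. Of the 7 factor genes, DESeq2 and the surrogate variable called 1 each, the fits without 1 clone 0 to 3, and without WT 1 DESeq2 called 2 and limma-voom 3. The Wwtr1 log2 fold change was -1.61 by DESeq2, -2.02 with the surrogate variable, -1.80 to -1.16 without 1 clone and -1.16 in both added fits. It was negative in all 13 alternatives of the plan, like those of Tead1 and Tead3, and that of Tead4 was positive in all 13. These fits reuse the same libraries. For Wwtr1, Tead1 and Tead4 the groups did not overlap, so leaving out a clone could not turn the sign of the difference in means. YAP/TAZ target calls were 4 by DESeq2, 3 with the surrogate variable and 0 to 14 without 1 clone. Hippo kinase and scaffold calls were 1, 1 and 0 to 9, and retention and turnover calls 1, 1 and 0 to 9. The sign turned for Vgll4 with the surrogate variable (-0.10) and between fits without 1 clone (-0.17 to 0.31), for Yap1 (-0.36 to 0.21, and 0.033 and 0.014 in the added fits) and for Tead2 (-0.65 to 0.15, and 0.14 and 0.11). The difference in the Tead4 share of TEAD counts, 5.62 percentage points, was 3.77 without TAZ-KO 1, 7.47 without TAZ-KO 2 and 10.8 per kb. Apart from the clone left out, the cause of these changes was not tested.

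The replicate numbers name clones, and the labels used here state no pairing. Deviations of same-numbered libraries correlated at -0.12 and -0.12 across genes. With 2 TAZ-KO libraries the deviations of that group mirror each other, so these values cannot decide whether libraries are paired. With the replicate number as a block, 0 genes were called (898 at an unadjusted p under 0.05), and the Wwtr1 log2 fold change was -1.70 (adjusted p = 0.479).

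Depth does not limit the factor genes, each with at least 292 counts per library. The limits are the number of clones, WT 1, and library chemistry known from 2 differing descriptions.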
